A study of Arabidopsis thaliana with 6 samples.

Results

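Sorted leaf cells of the myrBRX line were compared with those of the BRXL2 line. The comparison takes every library titled with either name, 4 of the 6 libraries in the series, and every locus counted in them. The myrBRX plants carried myrBRXp:myrBRX-YFP and the BRXL2 plants BRXL2p:BRXL2-YFP, each with 2 libraries. The remaining 2 libraries, labelled BRX (BRXp:BRX-YFP), entered the fit for its estimate of spread and are given beside some results. All plants were Columbia and true leaves were taken 9 days post germination. About 20000 sorted cells per sample gave 20 ng of total RNA, which was amplified before sequencing. The series calls the cells SLGC, stomatal lineage ground cells, and the gate used to sort them is not given in the sources used here. Each construct has the promoter of its own label, so the lines could mark different cells of the leaf. The labels do not say how the myrBRX protein differs from BRX, and no untransformed control was analysed here.

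BRX and its relatives are small plant proteins that bind the inner face of the plasma membrane at one side of a cell. In stomatal precursors they take part in the polarity that makes divisions asymmetric, and in the root BRX acts in protophloem sieve elements. Stomatal lineage ground cells are the larger daughters of such divisions; they can divide again or expand into pavement cells. Enzymes of detoxification, to which much of the account below belongs, work in steps. Glutathione transferases (GST) join glutathione to reactive or foreign molecules, UDP-glycosyltransferases (UGT) add sugars, and both make a compound more soluble before it is carried into the vacuole or out of the cell.

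The myrBRX libraries held 39085068 and 41096714 counts and the BRXL2 libraries 35981786 and 42113178. Levels are given as CPM, each count divided by the TMM-scaled size of its library in units of 1e6 counts. The correlation of log2 CPM over genes, as a description, was 0.880 for the myrBRX pair, 0.765 for the BRXL2 pair, and 0.669 to 0.760 for pairs across the lines. Organelle loci held 0.558% and 1.34% of the counts in myrBRX, against 1.71% and 2.32% in BRXL2; their part in the results was not tested. Of the 25 stomatal lineage regulators listed, 25 were detected in each myrBRX library and 24 and 25 in the BRXL2 libraries. Mesophyll and photosynthesis genes were also present, with a summed level of 767 and 971 CPM in myrBRX, against 1418 and 1725 CPM in BRXL2. Bulk counts cannot tell fewer cells of a type from less RNA per cell, and this holds for each result that follows.

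The gene named in each construct was examined first. BRXL2 stood at 21.5 and 12.6 CPM in the myrBRX libraries, against 1570 and 1378 CPM in the BRXL2 libraries. The lines were 63.9-fold apart at their nearest libraries, and the log2 fold change of myrBRX over BRXL2 was -6.43 ± 1.09 (adjusted p = 0.0747, edgeR). BRX had 32.3 and 72.7 CPM in myrBRX, against 22.7 and 31.9 CPM in BRXL2. The gap between the nearest libraries was 1.02-fold, and under scaling by library totals they overlapped, so the lines were not separated in BRX level (0.94 ± 0.81, adjusted p = 0.670). In the libraries labelled BRX this gene had 6.10 and 11.7 CPM, below both other lines, and a construct and its native gene were counted together.

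Of 33602 loci, 18174 passed the filter and were tested with edgeR's quasi-likelihood test. At an adjusted p under 0.05, 0 genes were higher in myrBRX (0%) and 9 were lower (0.0495%). At an unadjusted p under 0.05, 994 genes were higher (5.47%) and 1261 lower (6.94%). By DESeq2, 486 genes were higher at an adjusted p under 0.05, and by limma-voom 0. The smallest adjusted p in the higher direction was 0.058, that of GSTU24. Both myrBRX libraries lay above both BRXL2 libraries in 4415 genes (24.3% of those tested) and below both in 4489 (24.7%). A gap of at least 8-fold between the nearest libraries was left by 299 genes in the first group (1.65%) and by 312 in the second (1.72%). These shares are the background for each count of list members below. A gene near 0 in the other libraries passed the filter only through the line in which it was high, and could lie only on that side. The median log2 fold change of all tested genes was -0.153. With scaling by library totals in place of TMM factors, the median difference of log2 values was -0.306 against -0.0327, and 3548 genes lay above and 5250 below.

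Among genes without overlap whose mean log2 CPM was 3 or more, genes of chemical detoxification led the higher direction by p. GSTU24, a tau-class glutathione transferase, had 65.0 and 155 CPM in the myrBRX libraries, against 1.19 and 1.23 CPM in the BRXL2 libraries. The lines were 50.6-fold apart at their nearest libraries, and the fitted log2 difference was 6.50 ± 1.02 (SE; adjusted p = 0.0580; 5.73 without myrBRX 2). GSTU4 had 135 and 246 CPM in myrBRX, against 1.85 and 1.5 CPM in BRXL2. Its gap was wider, at 71.0-fold, with a larger error (6.83 ± 1.37, adjusted p = 0.162). UGT74E2 encodes an enzyme that glycosylates the auxin indole-3-butyric acid. It had 53.7 and 75.9 CPM in myrBRX, against 1.32 and 3.45 CPM in BRXL2 (4.76 ± 0.95, adjusted p = 0.162). ELI3-2, a cinnamyl alcohol dehydrogenase gene of the defence response, had 417 and 452 CPM in myrBRX, against 19.5 and 17.6 CPM in BRXL2 (4.55 ± 0.91, adjusted p = 0.162). The libraries of each line were close to each other in this gene, and the gap was 21.3-fold.

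The other genes among the 14 of lowest p in this set had gaps of 7.51-fold to 19.7-fold. Their log2 fold changes were 3.76 to 5.90, with adjusted p of 0.162 to 0.201. AT5G16960, annotated as a zinc-binding dehydrogenase, had 38.4 and 65.8 CPM in myrBRX, against 1.79 and 1.90 CPM in BRXL2. UGT73B2, a glycosyltransferase that acts on flavonoids, had 132 and 233 CPM in myrBRX, against 11.1 and 11.6 CPM in BRXL2. UGT73B4 had 54.8 and 97.2 CPM in myrBRX, against 5.95 and 3.29 CPM in BRXL2. Among these leading genes were thus 4 glycosyltransferases, the fourth being UGT87A2, with 37.0 and 44.0 CPM in myrBRX, against 1.64 and 2.86 CPM in BRXL2. In the libraries labelled BRX, UGT87A2 stood at 23.4 and 27.2 CPM, between the lines but nearer to myrBRX. AT3G63380, which belongs to the E1-E2 ATPases, AT1G60730, an oxidoreductase, and the kinase genes AT5G20050 and AT4G02410 were also in this group. PCAP1 encodes a cation-binding protein of the plasma membrane. It differed between the myrBRX libraries, with 18.2 and 198 CPM, against 2.38 and 1.23 CPM in BRXL2. Its log2 fold change of 5.90 was 3.32 without myrBRX 2. MES11, a methyl esterase gene, varied likewise, with 29.2 and 111 CPM in myrBRX, against 0.808 and 3.53 CPM in BRXL2, and its value of 5.01 was 3.74 without myrBRX 2 and 6.43 without BRXL2 2.

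**Figure D1:**
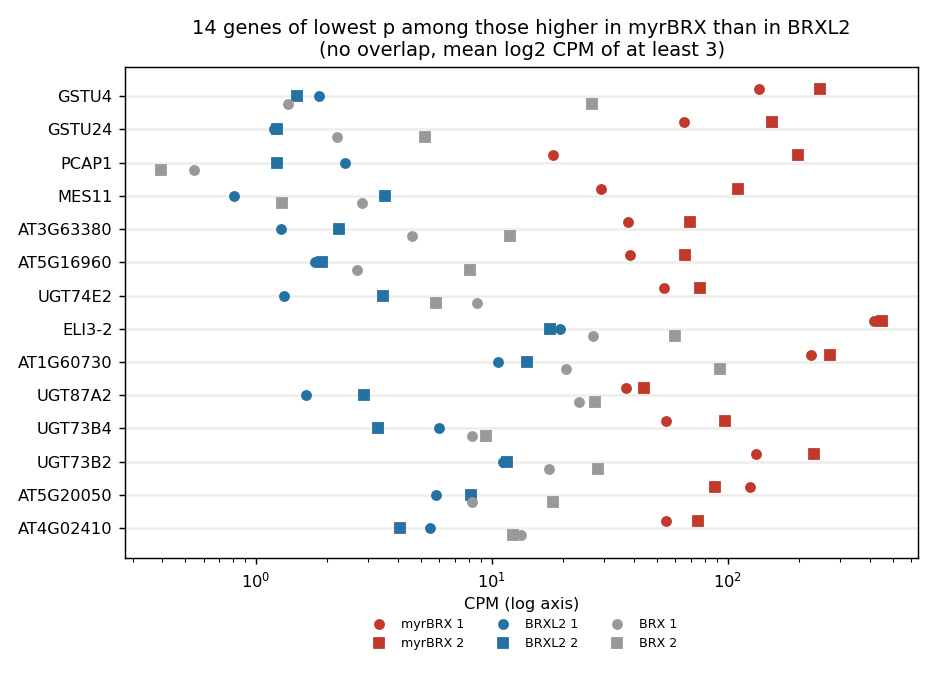
Level of 14 genes higher in myrBRX, in CPM on a log axis, 1 point per library, with the libraries labelled BRX in grey. They had the lowest p among genes with both myrBRX libraries above both BRXL2 libraries and a mean log2 CPM of at least 3. Genes without a symbol whose product was missing or described as hypothetical or unknown were left out. ELI3-2 is at 417 and 452 CPM in myrBRX and at 19.5 and 17.6 CPM in BRXL2; none of the 14 passed the adjusted test.

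Most tested members of the glutathione transferase family lay higher in myrBRX. Of 39 members listed, 27 were tested, and 18 lay above in myrBRX against 2 below, where 24.3% of all tested genes lay above. The median log2 fold change was 2.25, against -0.153 for all genes, and it stayed between 1.65 and 3.42 with RLE factors or with any 1 library left out. None passed the adjusted test, and 10 were higher and 1 was lower at an unadjusted p under 0.05. The other 12 members did not pass the filter, among them 7 at 0 counts in all 4 libraries. The summed level of the family was 29751 and 46074 CPM in myrBRX, against 3962 and 19393 CPM in BRXL2. The BRXL2 libraries thus differed between themselves more than the lines did at their nearest pair.

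Position in the genome grouped some of these genes, a description chosen after the values were seen. GSTU1 to GSTU7 have neighbouring locus numbers on 1 stretch of a chromosome, and 7 of 7 lay above in myrBRX. GSTU5 had 8415 and 8563 CPM in myrBRX, against 609 and 3757 CPM in BRXL2 (1.96 ± 1.36, adjusted p = 0.585). GSTU7 had 1693 and 2602 CPM in myrBRX, against 168 and 629 CPM in BRXL2 (2.43 ± 1.23, adjusted p = 0.447). GSTU3 had 3.64 and 3.75 CPM in myrBRX and 0 counts in both BRXL2 libraries, at least 51.3-fold higher against a floor of 3 counts per library. GSTU3 passed the filter only through its myrBRX counts, and GSTU2, with 0.191 and 0 CPM in BRXL2, would not have passed without them. GSTU24, GSTU25 and GSTU26 are also neighbours, and they were not all in 1 direction. GSTU25 had 13.1 and 78.8 CPM in myrBRX, against 4.30 and 1.20 CPM in BRXL2, while GSTU26 lay below, with 1.78 and 0.365 CPM in myrBRX, against 5.10 and 7.58 CPM in BRXL2. How reads that align to several places were counted is not given in the sources used here, so close copies may share reads.

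The phi class was mixed. GSTF7 had 61.9 and 209 CPM in myrBRX, against 4.30 and 4.98 CPM in BRXL2 (4.87 ± 1.51, adjusted p = 0.248). GSTF6, its close copy, had 34.3 and 142 CPM in myrBRX, against 4.25 and 16.5 CPM in BRXL2, and GSTF2 lay above as well, at 2.25 ± 0.92 on the log2 scale. GSTF9 lay below, with 0.361 and 1.82 CPM in myrBRX, against 4.21 and 21.7 CPM in BRXL2 (-3.56 ± 1.52, adjusted p = 0.373). Its value ran between -1.94 without BRXL2 2 and -5.16 without myrBRX 2, and its neighbour GSTF10 overlapped between the lines.

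Genes of xenobiotic and oxylipin detoxification, a list with no GST in it, had the largest share of higher members. All 18 listed were tested, and 15 lay above and 0 below (13 and 0 under scaling by library totals). The median log2 fold change was 2.84, with 1.69 to 3.26 under RLE factors or leaving out 1 library, and 8 members were higher at an unadjusted p under 0.05. ABCG40, a membrane transporter of the pleiotropic drug resistance type that also imports abscisic acid, had 1249 and 2913 CPM in myrBRX, against 50.5 and 102 CPM in BRXL2 (4.78 ± 1.33, adjusted p = 0.225). UGT73B5 had 686 and 958 CPM in myrBRX, against 21.8 and 64.2 CPM in BRXL2 (4.26 ± 1.12, adjusted p = 0.218). The 5 genes UGT73B1 to UGT73B5 all lay above.

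Enzymes that act on reactive carbonyls and on electrophilic lipids were in the same direction. AER, an alkenal reductase that removes products of lipid peroxidation, had 309 and 894 CPM in myrBRX, against 12.7 and 24.4 CPM in BRXL2 (5.02 ± 1.49, adjusted p = 0.238). Its 4 neighbours of the same type, AT5G16960, AT5G16980, AT5G16990 and AT5G17000, lay above as well; this count of 5 of 5 was made after their values were seen. AT5G16980 had 38.5 and 102 CPM in myrBRX, against 0.702 and 2.22 CPM in BRXL2 (5.59 ± 1.28, adjusted p = 0.201; 4.71 without myrBRX 2 and 6.64 without BRXL2 2). OPR1, an oxophytodienoate reductase gene, had 3333 and 5958 CPM in myrBRX, against 749 and 2455 CPM in BRXL2. The cytochrome P450 genes CYP81D8 and CYP81D11, known as markers of the response to xenobiotics, had log2 fold changes of 2.93 ± 1.14 and 3.19 ± 0.97, without overlap. SCL14, a GRAS protein that with class II TGA factors activates such genes, had 64.1 and 70.9 CPM in myrBRX, against 46.0 and 36.2 CPM in BRXL2, a log2 fold change of only 0.72 ± 0.73. The NAC factor genes NAC102 and NAC032, placed downstream of SCL14, overlapped between the lines.

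Across the libraries, the summed level of the detoxification list was 10044 and 17553 CPM in myrBRX, against 2052 and 6057 CPM in BRXL2. The libraries labelled BRX had 1111 and 4900 CPM, so myrBRX stood above every other library of the series in this sum. The sum of the GST family had the same order. In each line, library 2 had the higher sum of both lists, and the source of this shared pattern was not tested.

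**Figure D2:**
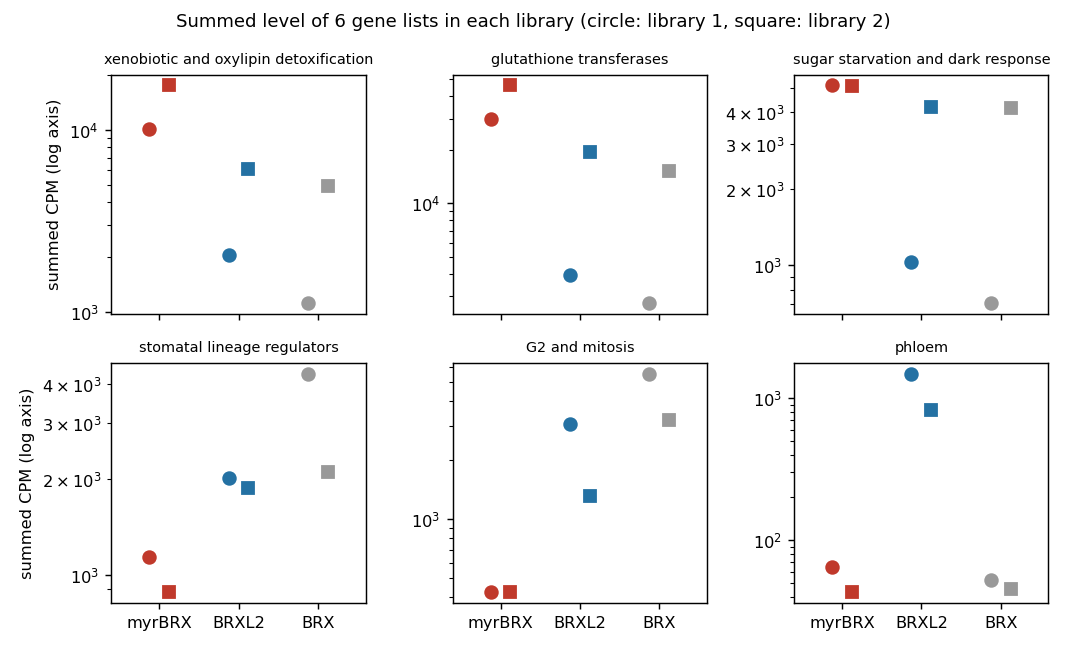
Summed CPM of 6 gene lists in each library, on log axes with a range of their own in each panel. The myrBRX libraries lie above all others in the detoxification, GST and sugar starvation lists and below all others in the stomatal and mitotic lists, while the phloem list is high in the BRXL2 libraries only.

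Genes that cells switch on in the dark or when sugar runs short formed the third group higher in myrBRX. Of 18 listed, 17 were tested, 11 lay above and 0 below; under scaling by library totals these counts were 10 and 1. The median log2 fold change was 2.31 (2.09 to 2.87 under RLE factors or without 1 library), and 7 members were higher at an unadjusted p under 0.05. BGLU30, also called DIN2 (DARK INDUCIBLE), had 30.9 and 19.8 CPM in myrBRX and 0 counts in both BRXL2 libraries, at least 351.5-fold higher against the floor. ASN1, an asparagine synthetase that stores nitrogen when sugar is scarce, had 512 and 411 CPM in myrBRX, against 56.7 and 35.4 CPM in BRXL2 (3.33 ± 1.13, adjusted p = 0.285). TPS8 and TPS10, members of the trehalose phosphate synthase family that respond to sugar status, lay above. TPS8 had 623 and 465 CPM in myrBRX, against 107 and 112 CPM in BRXL2 (2.31 ± 0.83, adjusted p = 0.298). The summed level was 5108 and 5071 CPM in myrBRX, against 1028 and 4185 CPM in BRXL2. TPS11 carried much of that spread, with 2759 and 2844 CPM in myrBRX, against 344 and 3774 CPM in BRXL2, and it overlapped. Enzymes of starch breakdown did not go with this group: of 17 tested, 3 lay above and 5 below (0 and 6 under library totals), and the sign of their median changed with the setting.

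RNS1 and MSS1 were among the 8 higher genes of largest gap whose mean log2 CPM was 3 or more; some genes of lower level had wider gaps. RNS1, a secreted ribonuclease induced by wounding and phosphate shortage, had 94.9 and 273 CPM in myrBRX, against 0.0638 and 4.31 CPM in BRXL2 (6.39 ± 2.09, adjusted p = 0.271). This value was 11.42 without BRXL2 2 and 5.41 without BRXL2 1. MSS1, a hexose transporter gene also known as STP13, had 56.5 and 89.3 CPM in myrBRX, against 2.98 and 0.241 CPM in BRXL2 (5.49 ± 1.62, adjusted p = 0.235; 8.22 without BRXL2 1 and 4.61 without BRXL2 2). Both genes were also high in the second library labelled BRX, at 121 and 51.7 CPM, against 0.885 and 1.25 CPM in the first.

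Hormone and stress lists were closer to the background. In the abscisic acid, drought and cold list, 6 of 21 tested members lay above and 4 below, with a median of 0.91. RD26, a NAC factor of the abscisic acid response, had 115 and 130 CPM in myrBRX, against 12.3 and 10.6 CPM in BRXL2 (3.41 ± 0.98, adjusted p = 0.235). NCED3, which makes the committed step of abscisic acid synthesis, was in the other direction, with 11.5 and 7.42 CPM in myrBRX, against 18.4 and 92.6 CPM in BRXL2 (-2.56 ± 0.96, adjusted p = 0.316), and its value was -0.96 without BRXL2 2. In the jasmonate list, 6 of 16 lay above and 1 below, and its median of 0.47 changed sign under an alternative. CYP94B3 and CYP94C1, which oxidise the active jasmonate to end the signal, had log2 fold changes of 4.35 ± 1.73 and 6.26 ± 2.05. CYP94B3 was at 7.41 without BRXL2 2 and 3.44 without BRXL2 1, and CYP94C1 at 4.93 without myrBRX 2 and 7.16 without BRXL2 1. MYC2, the factor that carries the signal, lay below at -1.79 ± 0.92. Rapid stress and heat shock genes mostly overlapped, in 17 of 21, and their summed level was 126906 and 69931 CPM in myrBRX, against 38393 and 113477 CPM in BRXL2. Phenylpropanoid genes lay above in 5 of 15 and below in 2, led by C4H with 212 and 230 CPM in myrBRX, against 36.5 and 70.1 CPM in BRXL2 (2.05 ± 0.80, adjusted p = 0.332). In the salicylate and camalexin list 1 of 5 tested members lay above and 1 below.

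**Figure D3:**
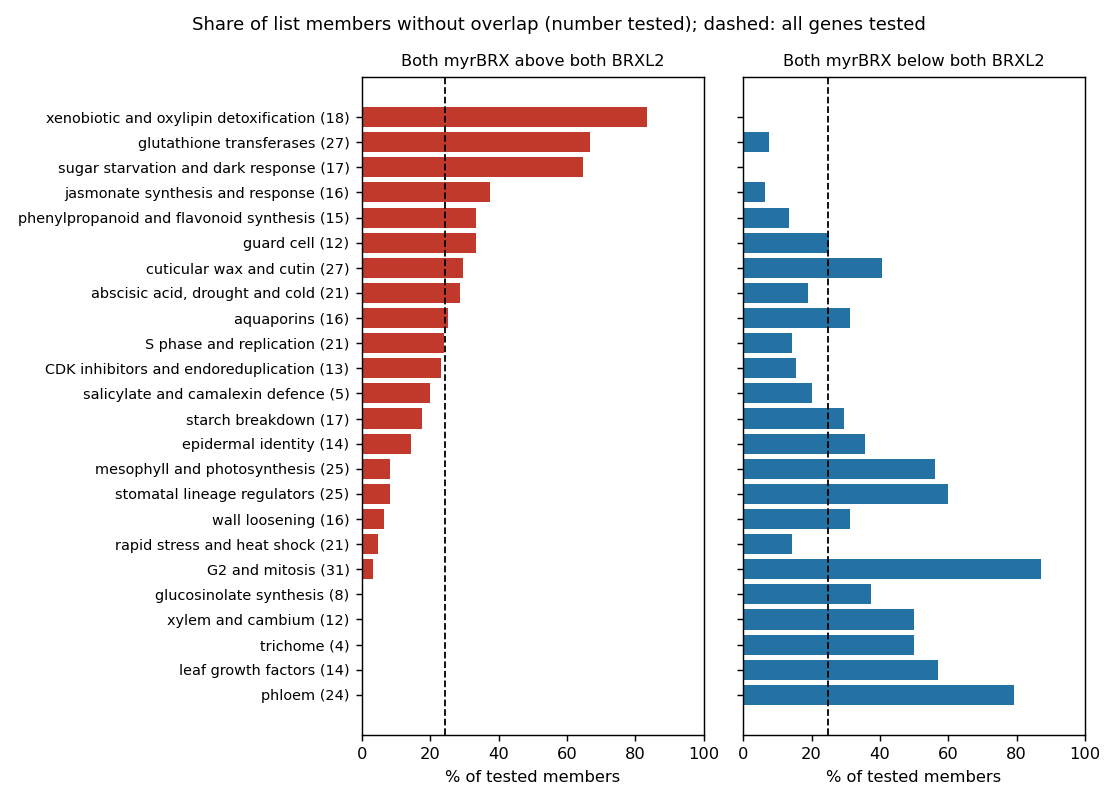
Share of the tested members of each gene list with both myrBRX libraries above (left) or below (right) both BRXL2 libraries, in percent, with the number tested in parentheses and dashed lines at the shares over all tested genes, 24.3% and 24.7%. Detoxification genes lie above in 15 of 18 and mitotic genes below in 27 of 31.

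The 9 genes that passed the test were all lower in myrBRX than in BRXL2, and 5 of them belong to the phloem, the tissue that conducts sugars. SMXL5, APL, SMXL4, AIL6, NAC096 and AT1G73850 passed the filter only through their BRXL2 counts. They were thus tested because of the line in which they were high. SMXL5, which promotes phloem formation, had 0.542 and 0.182 CPM in myrBRX, against 305 and 267 CPM in BRXL2. It was lower by 9.62 ± 1.17 on the log2 scale (adjusted p = 0.0292, edgeR). APL, a transcription factor of phloem identity, had 1 count in each myrBRX library, against 62.2 and 63.9 CPM in BRXL2 (ratio 0.000443, counting interval 5.37e-05 to 0.00160; adjusted p = 0.0292). SMXL4 was lower as well, with 0 and 2 counts in myrBRX, against 79.1 and 31.5 CPM in BRXL2 (adjusted p = 0.0472). The sieve element genes SEOa and SEOR1, which are neighbours and encode related filament proteins, were lower by 9.41 ± 1.21 and 9.50 ± 1.39 (adjusted p = 0.0315 and 0.0472). In the libraries labelled BRX, APL and SMXL4 had 0 counts, SMXL5 2 and 4, SEOa 4 and 11, and SEOR1 110 and 21. SEOR1 had 0.211 and 0.208 CPM in myrBRX, against 256 and 51.5 CPM in BRXL2, and its value was -7.92 without BRXL2 1 and -10.23 without BRXL2 2. SEOa was at -8.41 without BRXL2 1 and -9.99 without BRXL2 2, SMXL5 at -10.59 without myrBRX 1, and SMXL4 at -9.96 without myrBRX 1, -13.97 without myrBRX 2 and -10.00 without BRXL2 1.

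Over the phloem list, 24 of 27 members were tested, 19 lay below and 0 above, with a median of -8.53 on the log2 scale (-7.39 when members at 0 are set to their bound). Since members at or near 0 in the other lines were kept by the filter because of their BRXL2 counts, the count is given as a description. The sum of the list was 64.7 and 43.0 CPM in myrBRX, against 1475 and 827 CPM in BRXL2. In the libraries labelled BRX it was 52.0 and 45.2 CPM, so BRXL2 was the line that stood apart. Of the 27 markers, 16 and 18 were detected in the myrBRX libraries and 27 and 25 in the BRXL2 libraries. SUC2, the sucrose transporter of companion cells, did not follow, with 2.86 and 8.13 CPM in myrBRX, against 1.02 and 3.08 CPM in BRXL2. SWEET11 and SWEET12, sucrose exporters of phloem parenchyma, held at most 2 counts in any BRXL2 library.

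Of the remaining 4 genes that passed, 2 have known roles in organ growth or defence. AIL6, an AP2 factor related to AINTEGUMENTA that acts in young organs, had 0.120 and 0.234 CPM in myrBRX, against 74.7 and 93.8 CPM in BRXL2. It was lower by 8.86 ± 1.13 (adjusted p = 0.0363), and it had 0 counts in the libraries labelled BRX. TGG2, a myrosinase of guard cells and myrosin cells, had 0.0301 and 0.0781 CPM in myrBRX, against 47.7 and 27.6 CPM in BRXL2 (-9.33 ± 1.29, adjusted p = 0.0365; -10.15 without myrBRX 2). Its close copy TGG1 overlapped, with 891 and 385 CPM in myrBRX, against 490 and 93.6 CPM in BRXL2. In the libraries labelled BRX, TGG2 had 3.57 and 5.32 CPM. NAC096 had 1 count in each myrBRX library, against 31.0 and 19.8 CPM in BRXL2 (adjusted p = 0.0472). Each library labelled BRX also held 1 count of it. AT1G73850, named in the annotation only by a domain of unknown function, had 1 and 0 counts in myrBRX, against 59.3 and 23.1 CPM in BRXL2 (adjusted p = 0.0472). Its log2 fold change was -11.19, and -13.58 without myrBRX 1, -10.28 without myrBRX 2 and -10.33 without BRXL2 1. In the libraries labelled BRX this gene had 0 counts.

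These calls rested on few libraries. With the tested genes held fixed, 0 of the 9 passed without BRXL2 1, without myrBRX 1 or without myrBRX 2, 7 passed without BRXL2 2, and 9 without either library labelled BRX. With the filter redone in each case, 6 to 9 of them passed. Of the 9, 5 passed with RLE and 5 with upper-quartile factors, 0 with a filter at 50 counts and 0 by limma-voom, and 9 by DESeq2.

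Mitotic genes lay below in nearly the whole list. Of 31 genes of G2 and mitosis, all tested, 27 lay below and 1 above, and 21 were lower at an unadjusted p under 0.05, where 6.94% of all genes were. The median log2 fold change was -2.68 (-2.95 to -2.02 under RLE factors or without 1 library), and 0 passed the adjusted test by edgeR. CYCB1;2, a B-type cyclin gene, had 6.80 and 3.62 CPM in myrBRX, against 415 and 46.5 CPM in BRXL2 (-5.47 ± 1.17, adjusted p = 0.176; -3.16 without BRXL2 1). PLE, a microtubule-bundling protein of the division plane, had 17.1 and 6.85 CPM in myrBRX, against 175 and 99.1 CPM in BRXL2 (-3.52 ± 0.89, adjusted p = 0.210). CDKB2;1, a mitotic kinase gene, had 10.7 and 12.3 CPM in myrBRX, against 147 and 52.5 CPM in BRXL2 (-3.11 ± 0.86, adjusted p = 0.225). MYB3R-1 was the member above, with 75.0 and 95.6 CPM in myrBRX, against 41.5 and 45.9 CPM in BRXL2. It is a factor that binds the promoters of mitotic genes, and MYB3R-4, which activates them, lay below at -3.40 ± 1.06.

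The summed level of the mitotic list was 425 and 426 CPM in the myrBRX libraries, against 3067 and 1316 CPM in BRXL2. It was 5514 and 3219 CPM in the libraries labelled BRX, so myrBRX had the lowest sums of the series. Genes of S phase and replication did not share this: of 21 tested, 5 lay above, 3 below and 13 overlapped. Under scaling by library totals, 3 of these genes lay above and 3 below. E2FB, a factor of cell cycle entry, had 84.7 and 64.8 CPM in myrBRX, against 7.51 and 8.35 CPM in BRXL2 (3.24 ± 0.94, adjusted p = 0.235). CDC45, part of the replicative helicase, was in the other direction, with 0.722 and 0.677 CPM in myrBRX, against 17.5 and 5.62 CPM in BRXL2. Inhibitors of cyclin-dependent kinases and genes of endoreduplication lay above in 3 of 13 and below in 2, near the background. CCS52B lay below, with 110 and 77.5 CPM in myrBRX, against 587 and 304 CPM in BRXL2, while its relative CCS52A2, an activator of endoreduplication, had 26.2 and 21.3 CPM in myrBRX, against 14.9 and 9.69 CPM in BRXL2.

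**Figure D4:**
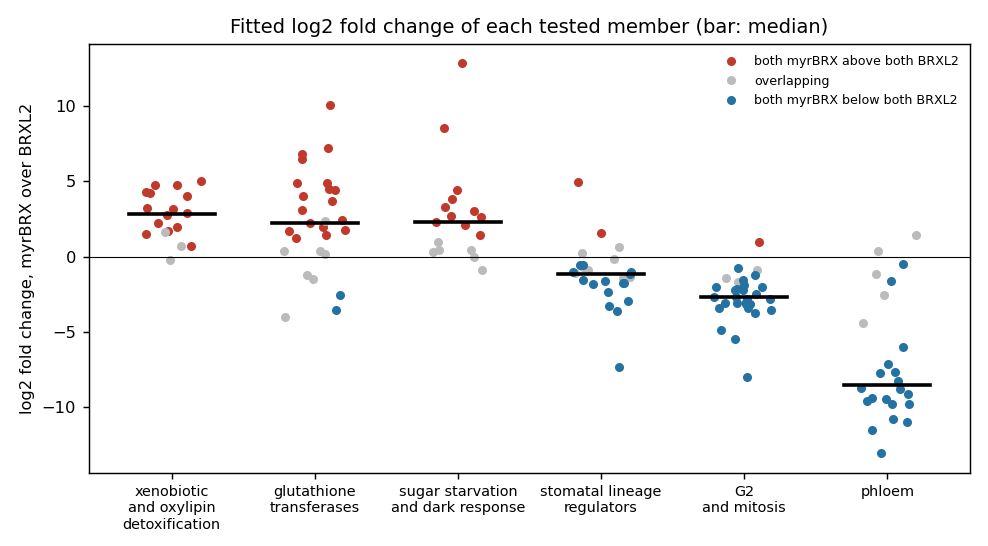
Fitted log2 fold change, myrBRX over BRXL2, of each tested member of 6 gene lists, with a black bar at the median and colour for members above, below or overlapping. The medians are 2.84 for detoxification, 2.25 for glutathione transferases, 2.31 for sugar starvation, -1.16 for stomatal regulators, -2.68 for mitosis and -8.53 for phloem; fitted values of members near 0 counts are no bounds.

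Of 25 stomatal lineage regulators, all tested, 15 lay below and 2 above, with a median of -1.16 (-1.35 to -1.06 under RLE factors or without 1 library). None passed the adjusted test, and 4 were lower at an unadjusted p under 0.05. MUTE, which commits a cell to become a guard mother cell, had 3 and 2 counts in the myrBRX libraries, against 13.4 and 11.1 CPM in BRXL2 (-7.37 ± 2.07, adjusted p = 0.225). It was kept by the filter because of its BRXL2 counts, so its place among the members below is a description. SDD1, a protease that limits stomatal number, had 10.7 and 12.2 CPM in myrBRX, against 186 and 92.1 CPM in BRXL2 (-3.60 ± 0.88, adjusted p = 0.210). FLP, which ends the divisions of the guard mother cell, had 9.87 and 9.56 CPM in myrBRX, against 88.0 and 64.5 CPM in BRXL2 (-2.97 ± 0.80, adjusted p = 0.221). The receptor gene TMM lay below, with 130 and 98.6 CPM in myrBRX, against 208 and 303 CPM in BRXL2. In the libraries labelled BRX, MUTE had 0.763 and 0 CPM, so it was high in BRXL2 alone. The other genes named here were higher there than in myrBRX: SDD1 had 88.2 and 35.3 CPM, FLP 157 and 86.4 CPM, and TMM 186 and 322 CPM.

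SPCH, FAMA and the polarity genes BASL and POLAR gave no common direction. SPCH, which starts the lineage, had 73.0 and 28.8 CPM in myrBRX, against 224 and 42.0 CPM in BRXL2, a fitted difference of -1.39 that turned to 0.28 without BRXL2 1. FAMA, which acts in the guard mother cell, had 18.5 and 14.5 CPM in myrBRX, against 55.8 and 14.5 CPM in BRXL2 (-1.09 ± 0.86, and 0.19 without BRXL2 1). BASL, a polarity protein, overlapped at 8.58 and 14 CPM in myrBRX, against 17.4 and 8.27 CPM in BRXL2. POLAR, a polarity gene of the same pathway, lay above, with 163 and 50.2 CPM in myrBRX, against 30.7 and 40.1 CPM in BRXL2, a gap of 1.25-fold (1.59 ± 1.04, adjusted p = 0.559; 0.50 without myrBRX 1 and 2.19 without myrBRX 2). In the libraries labelled BRX, POLAR had 741 and 88.3 CPM.

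Guard cell markers were mixed, with 4 of 12 tested above and 3 below, and their sum was 1044 and 527 CPM in myrBRX, against 595 and 201 CPM in BRXL2. TGG1, which overlapped and whose levels are given above, made up most of this sum in both myrBRX libraries. Of the members above, HT1 (16 and 31 counts in myrBRX, 0 in BRXL2) and SCAP1 (35 and 102, against 3 and 1) passed the filter only through myrBRX. They could thus lie only above. CYP86A2, a cutin enzyme of guard cells, had 81.3 and 82.6 CPM in myrBRX, against 9.74 and 25.6 CPM in BRXL2 (2.21 ± 1.07, adjusted p = 0.428). OST1, the kinase that closes stomata in response to abscisic acid, had 49.4 and 32.1 CPM in myrBRX, against 12.6 and 15.6 CPM in BRXL2. KAT1, a potassium channel gene, lay below, with 1.41 and 0.0260 CPM in myrBRX, against 5.74 and 10.3 CPM in BRXL2 (-3.48, and -8.09 without myrBRX 1 and -2.51 without myrBRX 2). Epidermal identity genes lay above in 2 of 14 and below in 5, with PDF1 at 144 and 90.5 CPM in myrBRX, against 658 and 381 CPM in BRXL2, and HDG1 at 62.4 and 65.2 CPM in myrBRX, against 10.2 and 17.4 CPM in BRXL2. Cuticle genes were split, with 8 of 27 above and 11 below. CUT1, a wax elongase gene, was high in 1 library, with 146 and 1384 CPM in myrBRX, against 88.2 and 44.8 CPM in BRXL2, and its value was 1.11 without myrBRX 2.

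Genes of growing leaf tissue lay below. Of 14 tested leaf growth factors, 8 lay below and 0 above, with a median of -1.90 (-3.06 to -0.69 under RLE factors or without 1 library). Those below include AIL6, which was tested only because of its BRXL2 counts. ANT, which prolongs the growth of organs, had 5.09 and 2.03 CPM in myrBRX, against 58.2 and 32.8 CPM in BRXL2 (-3.68 ± 1.1, adjusted p = 0.245). GRF1, a growth-regulating factor, had 0.0903 and 0.0260 CPM in myrBRX, against 1.66 and 0.589 CPM in BRXL2. Mesophyll and photosynthesis genes lay below in 14 of 25 and above in 2, with a median of -1.24 (-1.28 to -0.56 in the same alternatives), and in 18 and 2 under library totals. LHCB1.1, a light-harvesting gene, had 5.09 and 7.79 CPM in myrBRX, against 29.3 and 30.5 CPM in BRXL2 (-2.21 ± 0.89, adjusted p = 0.346), and the members above were RBCS2B and CA1. RBCS2B, a small subunit gene of Rubisco, had 172 and 183 CPM in myrBRX, against 13.5 and 119 CPM in BRXL2 (1.42, and 3.72 without BRXL2 2), and CA1, a carbonic anhydrase gene, had 13.9 and 15.8 CPM in myrBRX, against 6.89 and 9.50 CPM in BRXL2. Xylem and cambium genes lay below in 6 of 12 and above in 0, with PXY, the receptor that maintains the cambium, at 2.2 and 1.17 CPM in myrBRX, against 24.8 and 19.0 CPM in BRXL2 (-3.70 ± 1.08, adjusted p = 0.235). The levels of phloem, xylem and mesophyll markers were lower in myrBRX together with those of growth and division genes, and their part in the growth and division results was not tested.

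Wall and water channel genes differed in a few members. Wall-loosening genes lay below in 5 of 16 and above in 1. EXPA4, an expansin gene, had 0.361 and 0.651 CPM in myrBRX, against 11.7 and 10.3 CPM in BRXL2 (-4.43 ± 1.55, adjusted p = 0.294). Aquaporins were split at 4 above and 5 below of 16, and among them PIP1C had 12.3 and 12.7 CPM in myrBRX, against 581 and 132 CPM in BRXL2 (-4.83 ± 1.11, adjusted p = 0.201; -3.40 without BRXL2 1). Glucosinolate genes lay below in 3 of 8 and trichome genes in 2 of 4, with 0 above in either list. MYB28 and MYB34, regulators of glucosinolate synthesis, had 0 counts in both myrBRX libraries, at least 17.5-fold and 19.1-fold lower against the floor. Both also had 0 counts in the libraries labelled BRX. They passed the filter only through their BRXL2 counts and could lie only below.

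Several lower genes of lowest p that did not pass belong to no list. BGLU33, a beta-glucosidase gene, had 0.692 and 0.781 CPM in myrBRX, against 1359 and 76.7 CPM in BRXL2, a fitted difference of -9.92 (adjusted p = 0.0828) that was -6.69 without BRXL2 1. AT5G17980, which encodes a protein with C2 domains, had 2.29 and 0.938 CPM in myrBRX, against 65.0 and 197 CPM in BRXL2 (-6.34 ± 1.07, adjusted p = 0.0747; -5.33 without BRXL2 2). ROPGEF5, an activator of the ROP switches of cell polarity, had 1.84 and 2.34 CPM in myrBRX, against 40.1 and 44.9 CPM in BRXL2 (-4.34 ± 0.93, adjusted p = 0.178). In the libraries labelled BRX, ROPGEF5 had 3.23 and 3.04 CPM. AT5G62550, annotated as microtubule-associated, was lower by a gap of 10.2-fold, and AT3G10310, a P-loop protein, by 13.3-fold.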

How the data were processed

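RNA sequencing counts of sorted leaf cells were analysed. The authors deposited raw counts per locus, 1 table per library; that they are counts follows from the values, all whole, with unequal library sums. Bowtie2 and TAIR10 are named in the submitters' processing notes without further detail. Which program counted the reads, with which strand setting, and how multiply aligned reads were treated is not given in the sources used here, so antisense reads could be included. Locus names came from a TAIR10.1 table (32835 of 33602 loci matched, 10654 with a symbol).

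Loci were filtered with edgeR's filterByExpr (minimum 10 counts), scaled with TMM factors and fitted with glmQLFit in edgeR 4.0.16 under R 4.3.3, with all 6 libraries, 1 coefficient per genotype, a common dispersion of 0.781 and 3 residual degrees of freedom. P-values are two-sided, adjusted by Benjamini-Hochberg over 18174 genes. Errors of log2 fold changes, called SE, are the absolute log2 fold change divided by the square root of the quasi-likelihood F statistic. They were not estimated directly. The script was tested on simulated data, with recovery of planted differences required only at a dispersion lower than that of these data. Genes were also counted by whether both libraries of one line lay above both of the other, with gaps on log2 CPM (prior count 2). A floor of 3 counts per library was 0.0638 to 0.0903 CPM; these floors and 95% exact Poisson intervals express counting error alone. Whether both libraries of 1 line stem from separate cultures is not in the labels, so p-values measure only the spread between them, which may be technical. Tables of 1 line were not copies (chi-square per locus 532.7 and 814.6).

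The gene lists, named genes and rules were chosen with earlier results of these data known. Named were the construct genes, SPCH, MUTE, FAMA, TMM, BASL and POLAR, and all genes that passed. Also named were the 14 higher and 8 lower genes of lowest p without overlap and with mean log2 CPM of at least 3. To these came the 8 higher of largest gap, and up to 3 members per list and direction. Genes ranked by p or gap also needed a symbol, or a product not described as hypothetical or unknown. Other examples were chosen after their values were seen. Alternatives were RLE, upper-quartile and library-total scaling, no filter, a filter at 50 counts, limma-voom (limma 3.58.1), DESeq2 1.42.0, the 4 compared libraries alone, a replicate block and leaving out each library.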

Additional observations from a re-analysis of the deposited data

How the results depend on the processing

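The count of genes higher in myrBRX was 0 with RLE factors, upper-quartile factors, the filter at 50 counts and limma-voom, with 883 to 1231 at an unadjusted p under 0.05. It was 3 on the 4 compared libraries alone, 268 without a filter, 486 by DESeq2, and 0 to 46 with 1 library left out. The count of lower genes was 19 on the 4 libraries, 5 with RLE factors and 5 with upper-quartile factors, 389 without a filter, 0 with the filter at 50 counts (1166 unadjusted), 640 by DESeq2, 0 by limma-voom (1054 unadjusted), and 0 to 107 with 1 library left out. With the replicate number as a block it was 9 higher and 33 lower; same-numbered libraries correlated in their deviations at 0.121, and the labels do not say that the numbers pair samples. Repeating the filter after each omission was chosen after seeing the data. With 1 library of a line left, that library was assumed to vary like the others. Leaving out a library compares fewer libraries and gave 6153 to 7140 genes above and 6092 to 7559 below. The cause of the other changes was not tested. Of 132 named genes, 77 had a fold change that moved by over 1.5 times when 1 myrBRX or BRXL2 library was left out, and 3 changed sign under some alternative (SPCH, FAMA and BASL, none of which passed), and 10 of 25 lists changed the sign of their median. These were the starch, phenylpropanoid, glucosinolate, epidermal, guard cell, S phase, jasmonate, rapid stress, salicylate and aquaporin lists.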

Other observations

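Gene families grouped by the letters of their symbols were examined without a list, for 116 families with at least 10 tested members. Glycosyltransferases named UGT had the largest share above in myrBRX, 27 of 38, with 2 below and a median log2 fold change of 1.42. UGT73C7 had 20.7 and 31.3 CPM in myrBRX, against 1.47 and 0.937 CPM in BRXL2, and UGT74F2, which glucosylates salicylic acid, had 23.0 and 23.2 CPM in myrBRX, against 0.702 and 0.803 CPM in BRXL2. Autophagy genes named ATG lay above in 9 of 18 and below in 0; 1 of the 18, AT3G51800, shares its symbol but is a metallopeptidase gene. ATG8 proteins coat the autophagosome, and of 9 such genes 8 were tested and 6 lay above. ATG8H had 65.2 and 119 CPM in myrBRX, against 8.89 and 12.6 CPM in BRXL2, and ATG8F had 42.9 and 56.6 CPM in myrBRX, against 9.12 and 2.62 CPM in BRXL2 (3.08 ± 0.90, adjusted p = 0.235). Peroxins, which build peroxisomes, lay above in 9 of 18 and below in 1, with the import receptor PEX5 at 67.3 and 68.1 CPM in myrBRX, against 14.9 and 6.32 CPM in BRXL2. At the other end, 6 of 10 early nodulin-like genes lay below and 0 above, and 8 of 13 fasciclin-like arabinogalactan genes lay below and 1 above. These families were picked after the ranking was seen and not in strict order of rank, so their shares have no test. Between UGT and ATG stood GSTU (13 of 19 above), ERD (8 of 12), RAP and SCL (6 of 11 each) and TAF (7 of 13). ATL, MAPKKK, OFP and PRA had the same share above as ATG and PEX. At the lower end, FTSH, GH and GLR also had 0 above, and 11 of 18 genes named MAP lay below.

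Among genes with a gap of at least 8-fold, some with well-known roles fell outside the lists; they were chosen after their values were seen. GDH2, a subunit of glutamate dehydrogenase, had 3410 and 9270 CPM in myrBRX, against 245 and 183 CPM in BRXL2 (4.89 ± 1.48, adjusted p = 0.246). ERD5, the proline dehydrogenase that starts proline breakdown, had 1143 and 1668 CPM in myrBRX, against 124 and 58.4 CPM in BRXL2 (3.95 ± 0.99, adjusted p = 0.210). The trypsin inhibitor gene TI1 had 146 and 271 CPM in myrBRX, against 7.36 and 13.0 CPM in BRXL2. WRKY75, a factor linked to senescence and phosphate shortage, had 44.4 and 41.7 CPM in myrBRX, against 2.4 and 0.642 CPM in BRXL2 (4.82 ± 1.16, adjusted p = 0.210). PIF7, a phytochrome-interacting factor, had 22.7 and 56.0 CPM in myrBRX, against 0.744 and 0.723 CPM in BRXL2 (5.74 ± 1.20, adjusted p = 0.171), and LHT1, an amino acid importer, had 13.8 and 12.4 CPM in myrBRX, against 0.0425 and 0.0535 CPM in BRXL2.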
